A study of Homo sapiens with 6 samples.

Results

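Angiotensinogen and the receptors and peptidases that act with it were followed in IMR90 ER:Ras fibroblasts, described by the submitters as senescent, after depletion of the long noncoding RNA sin-lncRNA. The set holds 10 of the 57819 genes in the deposited table, found by gene name: AGT, AGTR1, ACE, ENPEP, ANPEP, LNPEP, MME, ECE1, EDN1 and EDNRA. AGT was chosen by its measured log2 difference between these same groups, and the others because they belong to the angiotensin and endothelin systems. The differences between groups are therefore given for the 10 genes as a description, with errors and no p-value. Where the text says that one of them passed the threshold used over all genes, this too describes the contrast and is no independent test.

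The study compared 3 libraries from cells given a scrambled siRNA (siSCR, called control here) with 3 from cells given an siRNA against sin-lncRNA (called knockdown). All 6 came from IMR90, an established line of human lung fibroblasts, carrying ER:Ras, a Ras oncogene that 4-hydroxytamoxifen (4OHT) switches on. Both groups received 200 nM 4OHT for 3 days, so the controls too had Ras switched on. The series title calls the cells senescent, which was not checked here with markers, and no library without 4OHT was analysed here. The labels do not say whether the replicates were separate cultures, so errors measure the spread between these libraries, which may be technical. PolyA RNA was read as single 50 bp reads, with 30271192 to 50913672 reads in genes in controls and 22117324 to 27882280 in knockdowns, so the deepest knockdown library had fewer reads than any control. The target stood at 3.70, 4.73 and 4.09 CPM (reads of a gene scaled to a common library size) in controls and 0.493, 0.640 and 0.534 in knockdowns, or 13.3% of control. All 12 lung fibroblast markers were detected, and their summed level was 19612 to 22667 CPM in controls and 16687 to 18905 in knockdowns. The sum hides a split, with 5 of the 12 called higher (such as COL3A1) and 5 lower (such as COL1A1, from a mean of 6617 to 3599 CPM) in limma. Over all genes tested, 17.5% were called higher and 23.5% lower.

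Angiotensinogen is a secreted protein made mainly by the liver and also by other tissues, and it is the precursor of angiotensin I. ACE trims angiotensin I to angiotensin II, which acts on the AT1 receptor, and aminopeptidases and neprilysin shorten these peptides further. Endothelin-1 is a vasoconstrictor peptide that endothelin-converting enzyme cuts from its precursor, and it acts on fibroblasts and smooth muscle through the ETA receptor. Both systems are known for their part in fibroblast activation and matrix deposition in the lung.

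The promoters of the ligand precursor genes are shown because AGT carries the widest difference in the set and EDN1 encodes the precursor of the second peptide. Each run is the 250 bases before the RefSeq start, read 5′ to 3′ on the gene's strand in GRCh38.p14, with matches to TATAAA (sense strand), TTCNNNGAA (the STAT pattern) and GCGTG (the dioxin response element core, both strands) in capitals. AGT lies on the minus strand at chr1:230714123-230714372, and the EDN1 entry shown, the last of 3, lies on the plus strand at chr6:12290111-12290360.
AGT: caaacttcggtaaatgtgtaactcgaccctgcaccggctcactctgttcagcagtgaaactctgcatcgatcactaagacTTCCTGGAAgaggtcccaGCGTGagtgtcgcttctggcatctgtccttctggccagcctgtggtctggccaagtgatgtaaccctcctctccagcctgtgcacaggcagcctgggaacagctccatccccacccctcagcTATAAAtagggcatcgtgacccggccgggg
EDN1: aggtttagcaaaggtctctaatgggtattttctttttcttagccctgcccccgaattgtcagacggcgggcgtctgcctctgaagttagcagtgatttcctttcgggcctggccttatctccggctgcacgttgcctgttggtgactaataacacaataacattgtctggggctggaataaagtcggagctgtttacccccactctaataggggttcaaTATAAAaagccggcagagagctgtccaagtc

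In the AGT run, TATAAA covers bases -30 to -25 from the start, TTCCTGGAA covers -170 to -162, and GCGTG covers -152 to -148. In the EDN1 run, TATAAA covers -31 to -26. Of 35116 RefSeq promoter windows of this length, 6.80% hold TATAAA, 6.57% hold TTCNNNGAA and 32.2% hold GCGTG. Windows were found for 9 of the 10 genes, all but AGTR1. They number 1 for AGT, ENPEP and EDNRA, 2 for ACE, ANPEP and LNPEP, 3 for EDN1 and 4 for MME and ECE1. The shares above are per window, while a gene is counted below if any of its windows matches, so these cannot be compared. Among those 9, TATAAA occurs in a window of AGT, EDN1 and LNPEP, and TTCNNNGAA in a window of AGT, ECE1 and LNPEP. GCGTG occurs in a window of 6 of them (AGT, ANPEP, ECE1, EDN1, EDNRA and MME), for EDN1 not in the run shown. CCAAT occurs in a window of 4 of the 9 genes, GGGCGG of 7 and TGANTCA of 0, and none of these matches is in AGT. Per window, the shares are 32.0%, 42.6% and 6.57%. Such matches describe letters and do not show binding.

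AGT was 6.19-fold higher in knockdowns (ratio of mean CPM). It is listed as ENSG00000135744.7 on chromosome 1, minus strand, 230838269 to 230850043 in the table's coordinates, whose build is hg19 per the submitters' processing notes. Its level was 1.38, 0.832 and 1.07 CPM in control replicates 1, 2 and 3 and 5.87, 7.81 and 6.66 CPM in knockdown replicates 1, 2 and 3. Every knockdown library was above every control, and the gap was wider than the range within either group. The mean went from 1.10 ± 0.27 to 6.78 ± 0.98 CPM (SD, n = 3), a log2 difference of 2.64 (SE 0.19, 95% interval 2.22 to 3.05). Of the 19048 genes with enough reads to be tested (a mean of at least 10 normalised reads), 4 had a higher log2 difference.

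The depth behind these AGT values was modest. Control libraries held 25 to 54 AGT reads and knockdown libraries 131 to 187. Exact Poisson 95% intervals, which cover counting error only, reached at most 1.84 CPM in controls and went no lower than 4.91 CPM in knockdowns. As AGT was chosen by this difference, the gap between the intervals is a description and no independent support. The spread between control libraries was 25.1% of their mean, against 16.3% from counting alone, and in knockdowns 14.4% against 7.84%. As the libraries were made from bulk RNA, more cells that express AGT and more AGT RNA per cell cannot be told apart.

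Of the entries overlapping or nearest to AGT, COG2 alone had more than a few reads. A gene annotated as antisense (ENSG00000244137.1), which overlaps AGT over 3600 bases and is listed on the same strand, had 6 reads in all 6 libraries together. COG2, the nearest gene below AGT and on the opposite strand, encodes a Golgi tethering subunit. It went from a mean of 16.2 to 17.4 CPM, with the knockdowns above all controls. Its log2 difference of 0.11 did not pass (limma, Benjamini-Hochberg adjusted p = 0.215). The nearest entry above, the 7SL pseudogene RN7SL467P, had 0 reads in every library.

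Because AGT is abundant in liver, hepatocyte markers were examined beside it. TTR and FGB had 0 reads in every library, and ALB had 4 reads in all libraries together. The 7 markers summed to 0.735 to 1.07 CPM in controls and 0.641 to 0.811 in knockdowns. SERPINA1, with 110 reads in all, made up most of that sum. It went from a mean of 0.647 to 0.533 CPM and was not called. Markers of leukocytes (7 genes) summed to 0.200 to 0.323 CPM in controls and 0.269 to 0.677 in knockdowns. Of 8 epithelial markers, 3 had no reads at all. The epithelial sum was 4.20 to 6.67 CPM in controls and 2.02 to 2.74 in knockdowns, nearly all of it KRT19. Smooth muscle markers (6 genes) summed to 245.35 to 256.5 CPM in controls and 145.5 to 156.5 in knockdowns. Most of this sum was ACTG2, from a mean of 213.2 to 118.5 CPM. In limma 3 of the 5 tested were called lower (ACTG2, CNN1 and LMOD1) and 0 higher, beside 23.5% lower over all genes tested. MYH11 and SYNPO2 were not called. Endothelial markers (7 of 8 found) summed to 20.7 to 25.2 CPM in controls and 17.1 to 17.9 in knockdowns. Of the 4 endothelial markers tested, 1 was called lower (TIE1, from a mean of 14.5 to 8.51 CPM) and 1 higher (VWF, from 1.76 to 2.37 CPM). Over all genes tested, 23.5% were called lower and 17.5% higher. The part of these markers in the results below was not tested.

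**Figure D1:**
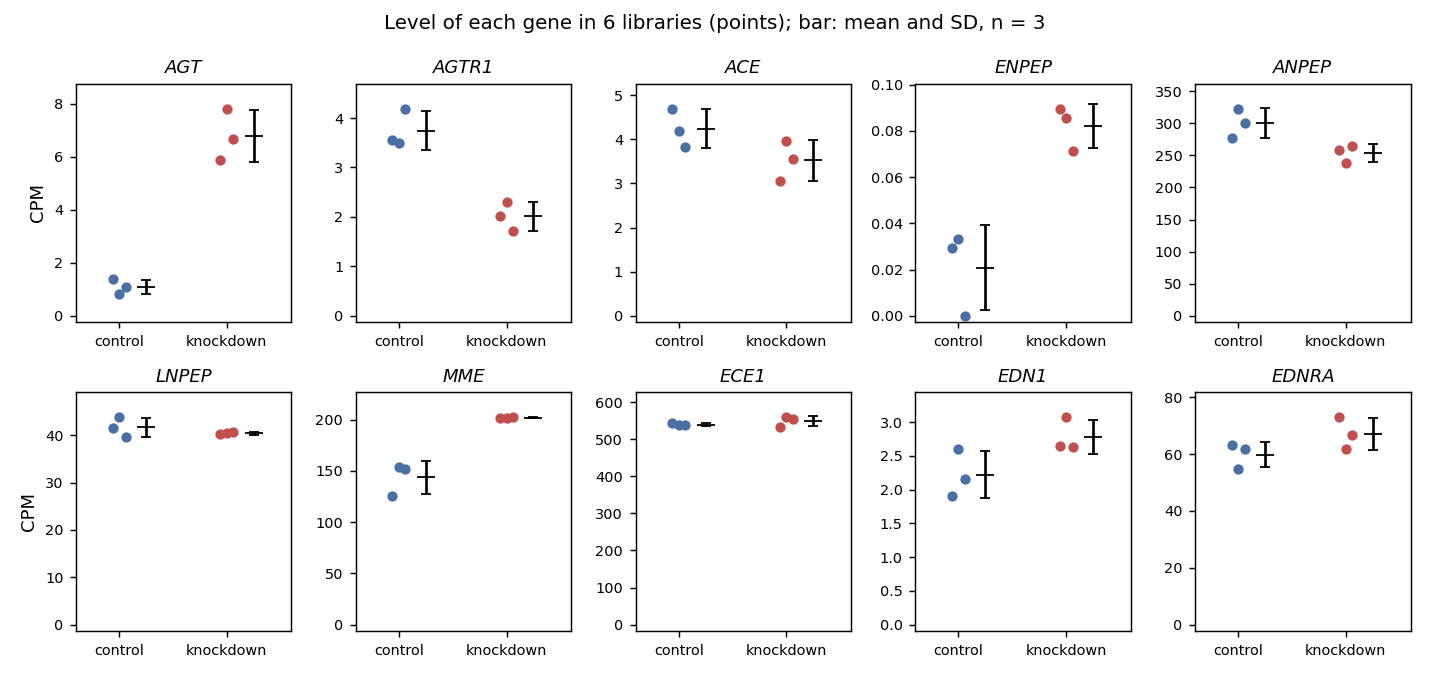
Level of each of the 10 genes in CPM (y axis, from 0, own scale per gene) in the 3 control and 3 knockdown libraries; points are libraries, the bar beside them is the mean with its SD. AGT, MME and, by a narrow margin, EDN1 lie higher in all 3 knockdown libraries and AGTR1 and ANPEP lower, while ENPEP rests on 0 to 2 reads per library.

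AGTR1, which encodes the AT1 receptor for angiotensin II, was lower in knockdowns, at 53.7% of control. It lies on chromosome 3, plus strand, 148415571 to 148460795. Control libraries 1, 2 and 3 had 3.55, 3.50 and 4.19 CPM, and knockdown libraries had 2.02, 2.31 and 1.71 CPM. All 3 knockdown values lay below the lowest control. The log2 difference was -0.89 (SE 0.15, 95% interval -1.22 to -0.57), with 105 to 211 reads in each control and 45 to 54 in each knockdown. In knockdowns the spread between libraries, 14.8% of the mean, was close to the 14.3% from counting alone.

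The ligand precursor and its receptor thus stood on opposite sides. Per kilobase of exon, AGT over AGTR1 was 0.590, 0.361 and 0.389 in control libraries 1, 2 and 3 and 4.42, 5.14 and 5.91 in knockdown libraries 1, 2 and 3. AGTR1 was the more abundant of the pair in every control, and AGT in every knockdown. AGT over ACE on the same scale was 0.724 to 1.07 in controls and 6.83 to 7.18 in knockdowns.

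ACE, the zinc peptidase that makes angiotensin II, had overlapping groups. It lies on chromosome 17, plus strand, 61554422 to 61599205, and measured 4.70, 4.20 and 3.83 CPM in controls and 3.05, 3.97 and 3.56 CPM in knockdowns. Knockdown replicate 2 was above control replicate 3. The log2 difference was -0.27 (SE 0.13, 95% interval -0.56 to 0.03). A second entry named ACE and the pseudogene ACE3P, both on the same strand and overlapping this span, had 0 reads.

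The aminopeptidases differed in level by orders of magnitude. ENPEP, the aminopeptidase A that removes the first residue of angiotensin II, had 0 or 1 read per control library and 2 reads in each knockdown library. Up to 3 reads can hide behind a count of 0, which is 0.0596 to 0.134 CPM depending on the library. Both groups were at or under that floor, so no fold is given. ENPEP was the single member left out by the read filter, and 4 of its overlapping neighbours had at most 5 reads in any library.

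ANPEP, the aminopeptidase N (CD13) that trims angiotensin III and many other peptides, was abundant and somewhat lower in knockdowns. It lies on chromosome 15, minus strand, 90328120 to 90358633. Controls had 277.1, 323 and 300.4 CPM and knockdowns 258.7, 238.7 and 265.1 CPM, without overlap between groups. The mean went from 300.2 ± 22.95 to 254.2 ± 13.8 CPM (SD, n = 3), or 84.7% of control, with a log2 difference of -0.24 (SE 0.06, 95% interval -0.37 to -0.11).

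LNPEP, the insulin-regulated aminopeptidase that also binds angiotensin IV, showed no separation. It lies on chromosome 5, plus strand, 96271098 to 96373219, with 41.5, 43.8 and 39.7 CPM in controls and 40.2, 40.4 and 40.8 CPM in knockdowns. All 3 knockdown values fell inside the range of the controls. The log2 difference was -0.04 (SE 0.05), with a 95% interval from -0.16 to 0.08.

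MME encodes neprilysin (CD10), a membrane peptidase that degrades angiotensins, endothelins, kinins and natriuretic peptides. It lies on chromosome 3, plus strand, 154741913 to 154901497, and was higher in knockdowns, at 140.6% of control. Controls had 125.2, 154.1 and 152 CPM and knockdowns 201.9, 202.2 and 202.4 CPM, so the lowest knockdown was well above the highest control. The log2 difference was 0.50 (SE 0.07, 95% interval 0.34 to 0.65), with 4262 to 7649 reads in each control and 4504 to 5683 in each knockdown. The 3 knockdown values lay closer together (0.139% of their mean) than counting alone would give (1.42%), while control replicate 1 stood below the other controls. MME-AS1, which overlaps MME on the opposite strand, had at most 4 reads in a library.

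Among ECE1, EDN1 and EDNRA, the endothelin arm, the converting enzyme had the smallest log2 difference. ECE1 lies on chromosome 1, minus strand, 21543740 to 21671997, and had 543.1, 538 and 537.2 CPM in controls and 534.1, 559 and 553.6 CPM in knockdowns. Knockdown values lay on both sides of the controls. Its log2 difference was 0.02 (SE 0.04), and the 95% interval ran from -0.06 to 0.11.

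EDN1, the endothelin-1 precursor, lies on chromosome 6, plus strand, 12290596 to 12297427. It had 1.91, 2.60 and 2.17 CPM in controls and 2.64, 3.07 and 2.64 CPM in knockdowns. The knockdowns lay above all controls, but control replicate 2 came close to the lowest of them. The log2 difference was 0.33 (SE 0.15, 95% interval -0.00 to 0.67), on 59 to 109 reads per library, and it did not pass the threshold used over all genes. Without control replicate 2 it was 0.45 and passed.

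EDNRA, the ETA receptor, lies on chromosome 4, plus strand, 148402069 to 148466106. Controls had 63.1, 54.7 and 61.7 CPM and knockdowns 73.0, 61.7 and 66.7 CPM, and knockdown replicate 2 lay within the control range. The log2 difference was 0.17 (SE 0.07, 95% interval 0.01 to 0.32) and did not pass the threshold. Without knockdown replicate 2 it was 0.22 and passed. GTF2F2P1, a pseudogene inside the EDNRA span on the same strand, had 59 to 171 reads per library. Its log2 difference of -0.16 did not pass (limma, adjusted p = 0.358). EDN1 over EDNRA, per kilobase, was 0.0631 to 0.0990 in controls and 0.0755 to 0.104 in knockdowns, and these ranges overlap.

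Across the set, 4 of the 9 genes tested had a limma Benjamini-Hochberg adjusted p under 0.05, 2 higher (AGT, MME) and 2 lower (AGTR1, ANPEP). The share over all genes tested was 41.0% (17.5% higher and 23.5% lower), and as the set was chosen with this contrast in view, nothing is read from the comparison. The groups did not overlap for 5 of the 9 genes, against 51.1% of all genes.

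**Figure D2:**
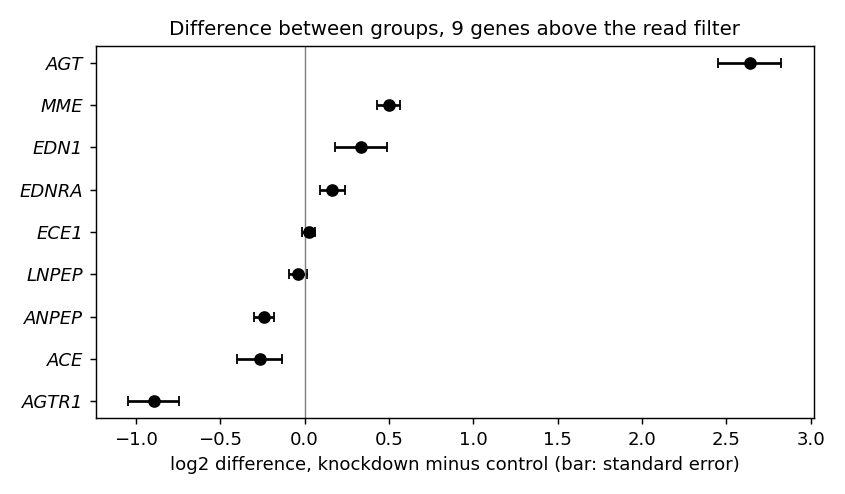
Log2 difference between knockdown and control (x axis, points) with its standard error (bars) for the 9 genes above the read filter. AGT at 2.64 stands far to the right of the others, which lie between -0.89 (AGTR1) and 0.50 (MME).

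Levels were compared between genes only per kilobase of exon (RPKM, from exon lengths in GENCODE 29). In controls the order was ECE1 (73.6 ± 0.4 RPKM), ANPEP (61.6 ± 4.7), MME (14.9 ± 1.7), EDNRA (14.1 ± 1.1), LNPEP (2.73 ± 0.13), EDN1 (1.09 ± 0.17), AGTR1 (1.08 ± 0.11), ACE (0.507 ± 0.052), AGT (0.478 ± 0.120) and ENPEP (SD, n = 3). Libraries overlapped between MME and EDNRA, between EDN1 and AGTR1, and between ACE and AGT, so the order within these pairs is not set. In knockdowns AGT stood above LNPEP at 2.96 ± 0.43 RPKM but overlapped it (2.65 ± 0.02), and MME at 21.0 RPKM no longer overlapped EDNRA (15.8 ± 1.3). With the longest transcript as the length, a choice made after the values were seen, AGTR1 moved above EDN1 in controls and LNPEP above AGT in knockdowns.

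Among the 6 peptidases, ECE1 and ANPEP made up most of the summed RPKM. ECE1 held 46.1% to 50.3% in controls and 48.6% to 51.0% in knockdowns. ANPEP held 38.6% to 41.7% and 32.8% to 35.4%, and MME 8.84% to 10.3% and 13.7% to 14.1%, respectively. ACE and ENPEP together held under 1% in every library.

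**Figure D3:**
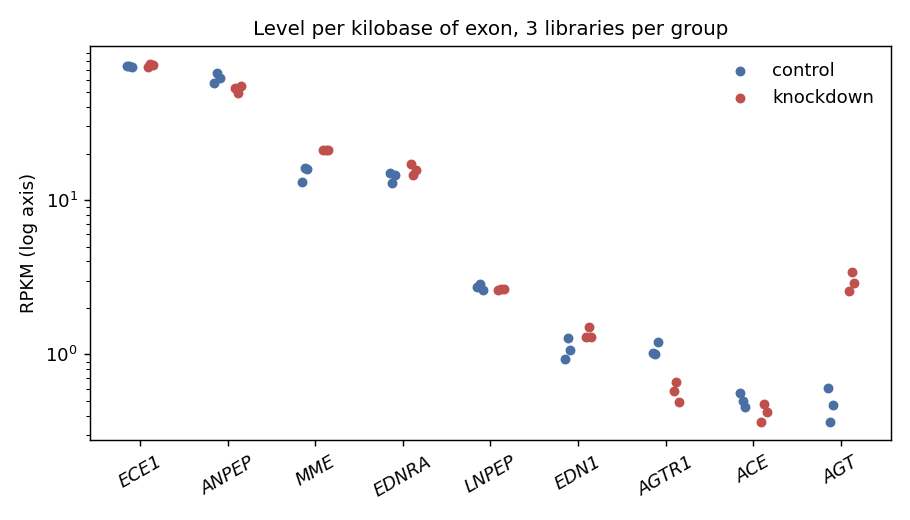
Level per kilobase of exon (RPKM, log axis) of 9 genes, ordered by their control mean, in 3 control and 3 knockdown libraries (points). AGT overlaps ACE at the low end in controls, with a mean of 0.478 RPKM, and reaches the level of LNPEP in knockdowns at 2.96 RPKM; ENPEP, with 0 to 2 reads, is not drawn.

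The genes whose profile over the 6 libraries was nearest to that of AGT were SCG2, C1QTNF7, MAMDC2, CYP1B1 and IL1RAP. Likeness was the Euclidean distance between log2 values centred on each gene's own mean, over 15114 genes with a mean of at least 50 normalised reads, and it largely reflects a similar difference between the groups. SCG2, the secretogranin II precursor of neuropeptides, was nearest at a distance of 0.58, with a mean of 29.7 CPM in controls and 145.1 CPM in knockdowns. C1QTNF7, a C1q/TNF-related secreted protein, followed at 0.62, with 3.42 and 16.98 CPM. MAMDC2, CYP1B1 and IL1RAP were at 0.64, 0.73 and 0.74.

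Other genes of these peptide systems were taken from 7 lists with 94 genes, of which 66 passed the read filter. Of the 66, 22 rose and 23 fell (limma, adjusted p under 0.05 over all genes), with a median log2 difference of -0.05, against -0.04 over all genes tested. The 45 called genes are 68.2% of those tested, beside 41.0% of all genes and 55.9% of the 7632 protein-coding genes with a mean of at least 500 normalised reads, a level chosen after the data were seen. Of the 46 listed genes at that level, 36 were called. The lists were chosen with earlier results of these data known, so nothing is read from these shares or from the counts per list below.

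AGTR2, the AT2 receptor, had no reads in any library. Of 15 further genes of the angiotensin system, 8 were tested, 3 rose and 3 fell, with a median of -0.00058. Called genes were 75% of those tested, beside 41.0% over all genes. AGTRAP, which binds the AT1 receptor and promotes its internalisation, fell from 32.8 ± 0.9 to 23.9 ± 1.1 CPM (SD, n = 3), a log2 difference of -0.45 (SE 0.06; limma, adjusted p = 0.00012). ATP6AP2, an accessory subunit of the vacuolar proton pump, rose from 146.0 ± 4.4 to 167.7 ± 3.5 CPM, a log2 difference of 0.20 (SE 0.04; limma, adjusted p = 0.0032). THOP1, a peptidase that makes angiotensin 1-7 from angiotensin I, fell with a log2 difference of -0.475 (SE 0.10; limma, adjusted p = 0.0029). IGF2R, the mannose 6-phosphate receptor, rose with a log2 difference of 0.31, and PRCP, a carboxypeptidase that inactivates angiotensin II, with one of 0.25 (limma, adjusted p = 0.0016 and 0.0012).

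Further aminopeptidases moved in both directions, with 4 of 12 tested genes higher and 6 lower and a median of -0.13. The share called was 83.3%, beside 41.0% over all genes. ERAP2 and ERAP1, which trim peptides in the endoplasmic reticulum and belong to the same M1 family as ENPEP, ANPEP and LNPEP, both rose. ERAP2 had 31.9, 33.6 and 31.5 CPM in controls and 55.1, 56.8 and 56.8 CPM in knockdowns, a log2 difference of 0.80 (SE 0.05; limma, adjusted p = 9.9e-07). ERAP1 rose by a log2 difference of 0.39 (SE 0.05; limma, adjusted p = 0.00024). AOPEP, listed as C9orf3, is an aminopeptidase of the M1 family, and it rose from 11.6 ± 1.1 to 17.95 ± 0.19 CPM. DPP4, a dipeptidyl peptidase that also cleaves peptide hormones, rose from 84.8 ± 4.3 to 117.85 ± 1.1 CPM (log2 difference 0.48; limma, adjusted p = 2.4e-05). RNPEPL1, a relative of aminopeptidase B, and RNPEP, aminopeptidase B itself, both fell. Their log2 differences were -0.44 and -0.23 (limma, adjusted p = 0.0020 and 0.012).

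Of 8 further genes of the endothelin system and the neprilysin family, 3 passed the filter. Among these, 1 was called (33.3%, beside 41.0% over all genes). EDN3 had no reads and EDN2 had reads in 2 of the 6 libraries, at 0.0795 and 0.256 CPM. EDNRB, the ETB receptor, had 2.09, 1.03 and 1.47 CPM in controls and 2.06, 2.09 and 2.60 CPM in knockdowns. Control replicate 1 lay inside the range of the knockdowns, and the log2 difference of 0.61 did not pass (SE 0.23; limma, adjusted p = 0.058). ECE2, a relative of ECE1, went from a mean of 6.35 to 5.48 CPM and did not pass either, although its groups did not overlap (log2 difference -0.21; limma, adjusted p = 0.101). PHEX, a neprilysin relative and the single gene of this list that passed, was named after its values were seen, and it rose from 0.598 ± 0.088 to 1.51 ± 0.44 CPM (log2 difference 1.29; limma, adjusted p = 0.0017).

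FURIN, a proprotein convertase that cuts big endothelin-1 from its precursor, fell. It had 269.1, 245.4 and 258.4 CPM in controls and 158.4, 179.8 and 166.0 CPM in knockdowns, with no overlap. Its log2 difference was -0.62 (SE 0.05; limma, adjusted p = 9.7e-06). MBTPS1, the site-1 protease of the same family, rose with a log2 difference of 0.41 (SE 0.04; limma, adjusted p = 2.0e-05). PCSK5 and PCSK7, further convertases of the list, were not called.

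**Figure D4:**
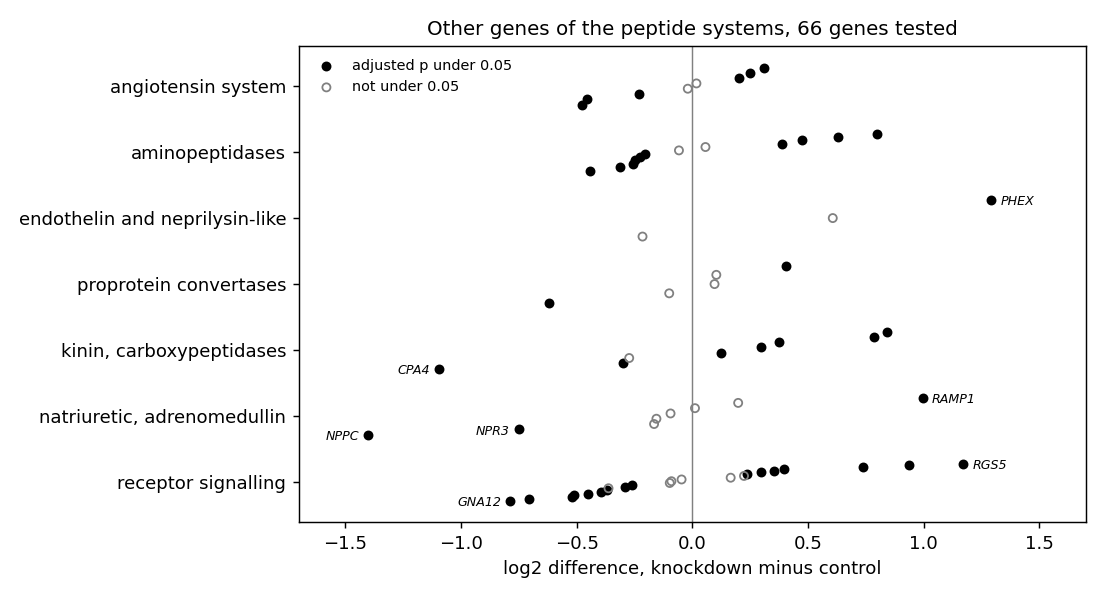
Log2 difference between knockdown and control (x axis) of 66 genes in 7 lists of peptide-system genes (rows); filled points passed an adjusted p of 0.05 in limma, open points did not. Filled points lie on both sides of 0, with 22 genes higher and 23 lower, or 68.2% of those tested beside 41.0% over all genes.

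Kinin receptors and carboxypeptidases had 5 of 8 tested genes higher and 2 lower, with a median of 0.21. The share called was 87.5%, beside 41.0% over all genes. The bradykinin receptors differed in direction: BDKRB1 fell from 38.1 ± 3.8 to 30.9 ± 2.0 CPM (log2 difference -0.30; limma, adjusted p = 0.0105), and BDKRB2 rose from 203.1 ± 9.5 to 221.2 ± 5.6 CPM (log2 difference 0.12; limma, adjusted p = 0.049). BDKRB2 did not pass without control replicate 2 or 3 or without knockdown replicate 2 or 3, and its highest adjusted p in limma among these was 0.198. BDKRB1 did not pass without knockdown replicate 3 (limma, adjusted p = 0.054). CPA4, a carboxypeptidase, fell from 24.8 ± 3.4 to 11.5 ± 0.5 CPM, a log2 difference of -1.10 (SE 0.09; limma, adjusted p = 7.5e-06). CPQ and CPE, a plasma carboxypeptidase and the carboxypeptidase E of prohormone processing, rose with log2 differences of 0.84 and 0.79 (limma, adjusted p = 2.5e-06 and 1.7e-05).

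Natriuretic peptide and adrenomedullin genes had 1 of 8 tested genes higher and 2 lower (37.5% called, beside 41.0% over all genes). RAMP1, a partner of the calcitonin receptor-like receptor, rose from 4.10 ± 0.99 to 8.19 ± 1.96 CPM (log2 difference 1.00; limma, adjusted p = 0.0018). NPR3, the natriuretic peptide clearance receptor, fell from 2.08 ± 0.33 to 1.23 ± 0.27 CPM (log2 difference -0.75; limma, adjusted p = 0.013), but without control replicate 3 its adjusted p in limma was 0.058. NPPC, the C-type natriuretic peptide precursor, was the other that fell, and it was named after its values were seen (0.921 ± 0.250 to 0.338 ± 0.124 CPM; limma, adjusted p = 0.0057).

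Genes that carry or damp signals of AT1-type receptors were all above the filter (22 of 22), with 7 higher and 9 lower. Called genes were 72.7% of these, beside 41.0% over all genes. RGS5, a regulator that switches off Gq and Gi proteins, had 3.29, 3.06 and 3.20 CPM in controls and 7.35, 7.56 and 6.66 CPM in knockdowns, a log2 difference of 1.17 (SE 0.10; limma, adjusted p = 8.7e-06). NOX4, an NADPH oxidase, rose from 3.68 ± 0.34 to 7.06 ± 0.74 CPM (log2 difference 0.94; limma, adjusted p = 0.00010). GRK5, a kinase that desensitises receptors, rose from 47.8 ± 1.5 to 79.8 ± 3.8 CPM (log2 difference 0.74; limma, adjusted p = 2.0e-06). GNA12, a G protein alpha subunit, fell from 169.4 ± 4.7 to 98.1 ± 3.2 CPM (log2 difference -0.79; limma, adjusted p = 5.0e-07). These lists were described by their counts only, and none was tested as a set.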

How the data were processed

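The authors deposited 1 table of log2 values for 57819 genes. Bowtie2, featureCounts and the build hg19 are named in the submitters' processing notes, while versions, strand setting, annotation release and scaling are not given in the sources used here. Without a known strand setting, reads of overlapping or antisense genes cannot be told apart. Undoing the log2, a 0.5-read offset and a library size gave whole reads (within 1e-06) for 100% of the values, so the deposited log2 values are log2 CPM with that offset. CPM and RPKM in the text are recomputed from those reads without the offset, RPKM with exon lengths of GENCODE 29. Columns were matched to samples through the replicate number and the siRNA in their names, and the si1.3 in the knockdown columns, where the labels have si1, is unexplained.

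Limma 3.58.1 (R 4.3.3) was fitted to the deposited log2 values (trended eBayes, group as the sole term, two-sided) over 19048 genes with a mean of at least 10 normalised reads, with Benjamini-Hochberg adjustment at 0.05. The code was tested on simulated counts. Intervals of differences are 95% and use the moderated degrees of freedom. The 10 genes and the lists were chosen with earlier results of these data known. Named genes are the 10 members, the target, up to 4 called genes per list with the largest difference, at least 50 normalised reads and no overlap between groups, 14 genes fixed by role (some of them not reported here), 5 genes nearest AGT and its neighbours. Of 48 marker genes, 47 were found (not PECAM1). Promoters came from RefSeq (GRCh38.p14). Alternatives covered offset, filter, scaling, voom, robust eBayes, thinning, a replicate block and leaving out each library.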

Additional observations from a re-analysis of the deposited data

How the results depend on the processing

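AGT, AGTR1, ANPEP and MME kept direction and call in all 18 other fits, and no member reversed. Leaving out 1 library put AGT between 2.46 and 2.82, and it was 0.95 with log2(CPM + 5), an offset near its own level. The target's log2 difference was -2.86, lay between -2.97 and -2.77 without any 1 library, and was -0.72 with that offset. EDNRA passed in 5 fits (no filter, median-of-ratios, quantile normalization, the replicate block, without knockdown replicate 2), and EDN1 in 1. The members called numbered 4 or 5 throughout. In the count of all genes changed, 7805 passed, and 5803 to 7330 with a library left out, the fewest without control replicate 3. Without the filter 10220 passed and 54.2% of them were higher, against 42.6% with it, and the median log2 difference was 0.60 because genes with 0 reads hold an offset set by depth. The 66 listed genes gave 39 to 46 calls with a library left out and 49 without the filter. Of the 45 called, 38 kept call and direction in every fit that tested them and 7 lost the call in at least 1. PHEX and NPPC, among the 38, were not tested in the fit that required a mean of at least 50 normalised reads. Same-numbered libraries did not deviate together (correlations -0.149, -0.183 and 0.0655). These correlations cannot settle whether such libraries were paired by culture or day, because spread particular to a library can hide pairing. Fitting the replicate block, all genes changed numbered 6454, 43 listed genes and 5 members passed, the target stayed at -2.86, and NLN and BDKRB2 did not pass. AGT is limited by depth, with 25 reads in control replicate 2.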
